A study of Homo sapiens with 9 samples.

Results

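The proteasome and the heat shock chaperones were described from the peaks at which 3 alternative subunits of SWI/SNF, a chromatin remodeling complex, were mapped in HepG2, an immortal line from a human liver tumour. Members were all peaks of the ARID1A, ARID1B and ARID2 lists whose nearest gene, as the authors named it, began with PSMA to PSMG (proteasome) or with HSPA, HSPB, HSPD, HSPE, HSPH, HSP90 or DNAJ (chaperones). By this rule 296 of the 34575 ARID peaks were members. The proteasome had 110 of them (47 ARID1A, 15 ARID1B and 48 ARID2 peaks) and the chaperones had 186 (81, 26 and 79).

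The series held 9 ChIP-seq libraries of unmodified HepG2 cells, with 2 replicates for each antibody (ARID1A, ARID1B, ARID2 and SNF5) and 1 input library, which was not used here. The authors merged both replicates of an antibody before they called peaks, so each list was 1 measurement, with no spread between replicates and no test between lists. The ARID lists held 12852, 8728 and 12995 peaks for ARID1A, ARID1B and ARID2, and the SNF5 list held 20718. Read depth was not given in the lists, and a missing peak cannot be read as missing binding.

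SWI/SNF complexes slide and evict nucleosomes. ARID1A and ARID1B are the alternative large subunits of the BAF form, ARID2 marks the PBAF form, and SNF5 (SMARCB1) is a core subunit of both. The proteasome is the main protease of the cytosol and nucleus: a 20S core barrel of alpha and beta rings cuts proteins, and a 19S cap recognizes, unfolds and feeds in ubiquitin-tagged substrates. Heat shock chaperones fold, hold or refold proteins. HSP70 proteins work with DNAJ partners, which stimulate their ATPase, HSP90 matures client proteins, and HSP60 with HSP10 forms the folding chamber of mitochondria. Heat shock factor HSF1 binds heat shock elements at chaperone genes, and NFE2L1 binds antioxidant response elements at proteasome genes when proteasome activity falls.

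Promoter DNA is shown for some genes assigned peaks of all 3 lists. The stretch before the canonical start site, free of annotated exons, was read from GRCh37 (the assembly of hg19). It is written 5′ to 3′ on the strand of the gene. Genes were taken in order of summed ARID peak width, which counts every assigned peak, also those far from a start. Genes of that group with a heat shock element (chaperones) or an antioxidant response element core (proteasome) were added. At HSPA6 only ARID1A peaks lay near a start. Genes with fewer than 150 exon-free bases in 1 run were passed over, which left out HSPD1 and PSME4. Capitals mark 4 motifs on either strand: a heat shock element of alternating units (GAANNTTCNNGAA), the antioxidant response element core (TGACNNNGC), the CCAAT box (CCAAT) and the GC box (GGGCGG).
PSMA6: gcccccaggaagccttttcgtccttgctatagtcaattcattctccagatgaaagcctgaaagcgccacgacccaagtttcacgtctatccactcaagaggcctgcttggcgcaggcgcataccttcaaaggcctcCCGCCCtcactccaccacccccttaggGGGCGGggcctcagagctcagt
PSMB3: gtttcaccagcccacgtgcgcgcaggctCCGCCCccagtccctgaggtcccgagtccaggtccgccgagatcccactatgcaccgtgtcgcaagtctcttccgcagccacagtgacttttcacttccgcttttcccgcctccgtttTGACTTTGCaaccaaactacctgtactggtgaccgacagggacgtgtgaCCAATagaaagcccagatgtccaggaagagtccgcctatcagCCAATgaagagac
PSMD1: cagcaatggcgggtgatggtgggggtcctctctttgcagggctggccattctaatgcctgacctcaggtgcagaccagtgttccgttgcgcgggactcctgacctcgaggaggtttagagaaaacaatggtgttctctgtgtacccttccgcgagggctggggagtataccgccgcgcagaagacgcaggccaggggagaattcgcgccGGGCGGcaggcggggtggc
PSME1: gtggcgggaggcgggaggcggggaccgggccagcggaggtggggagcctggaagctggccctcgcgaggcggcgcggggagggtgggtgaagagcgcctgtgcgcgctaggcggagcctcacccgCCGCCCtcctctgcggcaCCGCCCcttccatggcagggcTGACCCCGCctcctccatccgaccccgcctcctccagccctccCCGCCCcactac
HSPA1L: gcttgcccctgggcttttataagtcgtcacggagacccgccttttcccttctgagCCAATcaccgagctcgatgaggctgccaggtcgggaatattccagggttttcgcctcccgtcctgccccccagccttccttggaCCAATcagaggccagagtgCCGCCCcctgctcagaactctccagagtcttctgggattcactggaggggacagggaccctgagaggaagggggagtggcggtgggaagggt
HSPA1B: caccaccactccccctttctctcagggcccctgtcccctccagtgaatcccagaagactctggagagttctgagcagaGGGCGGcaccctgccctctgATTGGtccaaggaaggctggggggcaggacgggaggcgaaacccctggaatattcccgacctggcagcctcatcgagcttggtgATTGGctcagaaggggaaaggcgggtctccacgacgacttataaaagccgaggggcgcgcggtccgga
HSP90AB1: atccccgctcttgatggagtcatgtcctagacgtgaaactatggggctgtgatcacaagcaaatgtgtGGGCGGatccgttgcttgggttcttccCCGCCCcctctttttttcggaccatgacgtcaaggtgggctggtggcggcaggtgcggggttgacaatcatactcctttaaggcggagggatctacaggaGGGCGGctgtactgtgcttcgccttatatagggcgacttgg
HSP90AA1: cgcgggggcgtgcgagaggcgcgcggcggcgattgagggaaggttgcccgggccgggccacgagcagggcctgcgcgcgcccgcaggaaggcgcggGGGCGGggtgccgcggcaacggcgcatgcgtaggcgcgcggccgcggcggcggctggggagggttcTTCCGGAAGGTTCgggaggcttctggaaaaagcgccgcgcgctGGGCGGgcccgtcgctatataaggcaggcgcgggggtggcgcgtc
HSPA6: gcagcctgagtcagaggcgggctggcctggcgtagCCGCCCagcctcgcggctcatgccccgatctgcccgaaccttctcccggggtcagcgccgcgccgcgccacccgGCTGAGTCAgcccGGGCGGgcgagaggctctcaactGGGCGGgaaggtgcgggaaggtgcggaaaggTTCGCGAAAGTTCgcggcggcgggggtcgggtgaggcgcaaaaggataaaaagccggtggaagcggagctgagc

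The PSMA6 stretch lay at chr14:35761338-35761522 on the plus strand, PSMB3 at chr17:36908744-36908993 (plus), PSMD1 at chr2:231921331-231921558 (plus) and PSME1 at chr14:24605153-24605371 (plus). HSPA1L lay at chr6:31783061-31783310 (minus), HSPA1B at chr6:31795265-31795514 (plus), HSP90AB1 at chr6:44214588-44214823 (plus), HSP90AA1 at chr14:102553382-102553631 (minus) and HSPA6 at chr1:161494080-161494329 (plus). The HSPA1L stretch is also the promoter of HSPA1A, whose start lies 260 bp away on the opposite strand. The 250 bases before the HSPA1A and HSPA1B starts were identical at 235 of 249 positions (94.4%) when aligned with a shift of 1 bp.

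The heat shock element letters were found before 6 of 71 chaperone genes (8.45%), 0 of 48 proteasome genes and 0.322% of the 19849 protein-coding promoters searched in the same 250-base window. The 6 genes were HSP90AA1, HSPA6, HSPA8, HSPD1, HSPH1 and DNAJB6. They gave 8 matches, since HSPA8 and HSPD1 each held 2, and the HSPD1 pair overlapped. Of the 8 matches, 7 lay under an ARID peak and the same number lay under an SNF5 peak. Coverage of matches was not counted over all promoters, and 53 of the 71 chaperone genes had an ARID peak within 1000 bp of a start. ARID1A and ARID2 peaks each covered 6 matches, and ARID1B peaks covered 2, both at HSPD1. The match at HSPA6, 74 bp before the start, lay under no ARID or SNF5 peak. It began at chr1:161494256, and a 53 bp ARID1A peak ended just short of it, at chr1:161494251. Only this exact pattern in this window was searched, so elements with other letters or positions were not counted. Genes without a match, HSPA1A and HSPA1B among them, cannot be read as lacking heat shock elements.

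The antioxidant response element core was found before 12 of 48 proteasome genes (25%), 8 of 71 chaperone genes (11.3%) and 11.4% of all promoters searched. Of its 15 matches at proteasome genes, 12 lay under an ARID peak and 12 under an SNF5 peak. Here too coverage was not counted over all promoters, and 39 of the 48 proteasome genes had an ARID peak within 1000 bp of a start. ARID1A peaks covered 10 of the 15 matches, ARID2 peaks covered 5 and ARID1B peaks covered 0. The 3 matches at PSMA7, an alpha ring subunit, all lay under ARID1A and SNF5 peaks, at 55 bp, 75 bp and 119 bp before the start. The GC box was found before 62.5% of proteasome, 69.0% of chaperone and 59.1% of all promoters, and the CCAAT box before 39.6%, 39.4% and 34.3%. Motif matches are descriptions of the letters in this window.

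Most proteasome peaks lay at promoters in all 3 lists. Promoter here means the feature class deposited with the lists, which need not match the promoter window the authors published. Its whole-list shares for ARID1B and ARID2 are above the published ones, and some peaks inside that window are classed as distal. The promoter class held 39 of 47 ARID1A peaks (83.0%, 95% Wilson interval 69.9 to 91.1), beside 72.6% of the whole ARID1A list. It held 11 of 15 ARID1B peaks (73.3%, 48.05 to 89.1), beside 37.9% of the whole list, and 39 of 48 ARID2 peaks (81.2%, 68.1 to 89.8), beside 67.0%. The ARID1B and ARID2 intervals lay above the share of their whole list and the ARID1A interval included it. Intervals cover counting error over peaks only, and several peaks can belong to 1 gene.

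Chaperone peaks had promoter shares close to those of their lists, and fewer of them lay in introns. Promoters held 58 of 81 ARID1A peaks (71.6%, 61.0 to 80.3), 12 of 26 ARID1B peaks (46.2%, 28.8 to 64.5) and 56 of 79 ARID2 peaks (70.9%, 60.1 to 79.8). All 3 intervals included the share of the whole list. Introns held 3 of 81 ARID1A (3.70%, 1.27 to 10.3), 2 of 26 ARID1B (7.69%, 2.14 to 24.1) and 7 of 79 ARID2 chaperone peaks (8.86%, 4.36 to 17.2), beside 12.9%, 33.95% and 17.5% of the whole lists, and all 3 intervals lay below those shares. The 3, 2 and 5 intron peaks of the proteasome gave intervals that included the share of the list (6.38%, 2.19 to 17.2, for ARID1A, 13.3%, 3.74 to 37.9, for ARID1B and 10.4%, 4.53 to 22.2, for ARID2). Distal chaperone peaks were 17 for ARID1A (21.0%, 13.5 to 31.1), 10 for ARID1B (38.5%, 22.4 to 57.5) and 13 for ARID2 (16.5%, 9.88 to 26.1), beside 12.6%, 25.8% and 13.6% of the whole lists. The ARID1A interval lay above the share of its list and those of ARID1B and ARID2 included it. The distal ARID1A chaperone peaks included repeated peaks at DNAJB12, HSPA1B and HSPA1L, and the class shares were not recounted without these genes. Distal proteasome peaks were 5 (10.6%, 4.63 to 22.6), 2 (13.3%, 3.74 to 37.9) and 4 (8.33%, 3.29 to 19.6), and all 3 intervals included the share of the list.

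The median distance from the midpoint of a proteasome peak to the nearest start site was 132 bp for ARID1A, 194 bp for ARID1B and 250.5 bp for ARID2. For chaperone peaks it was 243 bp, 1780 bp and 290 bp, and for the whole lists 235 bp, 2636 bp and 423 bp. ARID1B peaks were thus the farthest from start sites among the chaperones and in the whole lists, and not among the proteasome genes. The farthest proteasome peaks were all at PSMA6, and the farthest ARID1A and ARID1B chaperone peaks, 25264 bp and 25164 bp away, were assigned to the pseudogene HSP90AB3P.

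**Figure D1:**
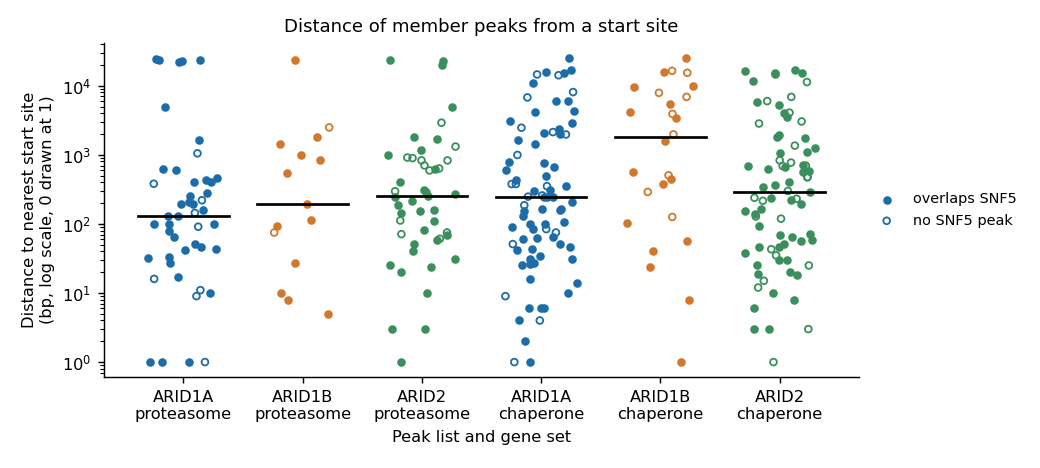
Distance in bp (log axis) from each member peak to the nearest start site, by peak list and gene set. Filled points overlap an SNF5 peak, open points do not, and bars are medians. The proteasome medians sit between 132 and 250.5 bp, and the ARID1B chaperone median sits at 1780 bp.

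SNF5 peaks overlapped most members, by at least 1 bp. Among proteasome peaks these were 38 of 47 for ARID1A (80.9%, 67.5 to 89.6), beside 71.3% of the whole list, 13 of 15 for ARID1B (86.7%, 62.1 to 96.3), beside 62.9%, and 34 of 48 for ARID2 (70.8%, 56.8 to 81.8), beside 67.2%. Among chaperone peaks they were 61 of 81 (75.3%, 64.9 to 83.4), 17 of 26 (65.4%, 46.2 to 80.6) and 53 of 79 (67.1%, 56.15 to 76.5). All 6 intervals included the share of the whole list. The members lay on 37 SNF5 peaks for the proteasome and 53 for the chaperones, with a median score of 25 and 24, beside 22 over the 10538 SNF5 peaks that any ARID peak overlapped and 19 over all SNF5 peaks. The authors did not state the scale of this score.

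Peaks of another ARID list overlapped 22 of 47 ARID1A (46.8%, 33.3 to 60.8), 11 of 15 ARID1B (73.3%, 48.05 to 89.1) and 25 of 48 ARID2 (52.1%, 38.3 to 65.5) proteasome peaks. For chaperones the counts were 42 of 81 (51.9%, 41.1 to 62.4), 18 of 26 (69.2%, 50.01 to 83.5) and 48 of 79 (60.8%, 49.7 to 70.8). The whole-list shares were 47.6% for ARID1A, 40.1% for ARID1B and 46.9% for ARID2. In both gene sets the ARID1B share lay above that of its list, with the interval clear of it, and so did the ARID2 share of the chaperones. Without the HSPA1A, HSPA1B and HSPA1L peaks the ARID1B and ARID2 chaperone shares were 60% (12 of 20, 38.7 to 78.1) and 53.0% (35 of 66, 41.2 to 64.6), and both intervals then included the share of the whole list. All 12 ARID1B peaks at chaperone promoters overlapped a peak of another list, as did 9 of the 11 at proteasome promoters, beside 65.5% of all ARID1B promoter peaks. No interval was computed for these promoter counts. Promoter peaks made up 37.9% of the whole ARID1B list, beside 73.3% of its proteasome and 46.2% of its chaperone members, so the 40.1% is not a like-for-like share.

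**Figure D2:**
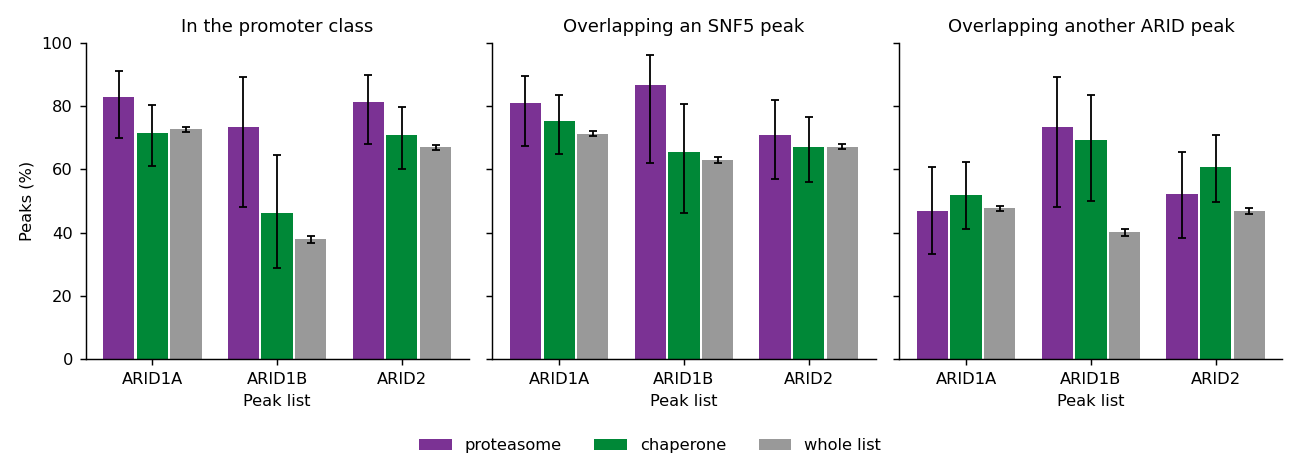
Percent of peaks in the promoter class, overlapping an SNF5 peak and overlapping a peak of another ARID list, for proteasome peaks, chaperone peaks and each whole list. Error bars are 95% Wilson intervals. The ARID1B bars for overlap with another ARID stand at 73.3% and 69.2% beside 40.1% for the whole list. Among promoter peaks only, the whole-list ARID1B share was 65.5%, and without the HSPA1A, HSPA1B and HSPA1L peaks the ARID1B chaperone share was 60%.

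When overlapping ARID peaks were joined, proteasome members fell into 77 regions and chaperone members into 123. Peaks of 2 or 3 ARIDs shared 25 proteasome regions (32.5%, 23.1 to 43.5) and 45 chaperone regions (36.6%, 28.6 to 45.4), beside 25.3% of the 25247 regions in all. All 3 ARIDs met in 9 proteasome regions (11.7%, 6.27 to 20.8) and 12 chaperone regions (9.76%, 5.67 to 16.3), beside 7.55%. Only the chaperone interval for 2 or 3 ARIDs lay above the share of all regions. Most regions of the HSPA1A, HSPA1B and HSPA1L cluster were shared, and the region shares were not recounted without them. Across the whole series 97.4% of the regions with all 3 ARIDs overlapped SNF5. Among members, 8 of 9 proteasome and 9 of 12 chaperone regions did. The 4 that did not were the PSMA4 promoter, both regions at the DNAJC10 promoter and a distal region assigned to HSPA6.

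By gene, 39 of 48 proteasome and 53 of 73 chaperone genes had an ARID peak within 1000 bp of one of their start sites, whichever gene the peak was assigned to. No list had such a peak for 9 proteasome and 20 chaperone genes, beside 55.3% of 20136 protein-coding gene names. ARID1A peaks were near 31 proteasome genes (64.6%) and 45 chaperone genes (61.6%), beside 37.4% of all names. ARID1B peaks were near 11 (22.9%) and 11 (15.1%), beside 13.8%, and ARID2 peaks near 29 (60.4%) and 46 (63.01%), beside 32.9%. SNF5 peaks were near 39 (81.2%) and 47 (64.4%), beside 44.0%. The share over all names includes genes that are silent in HepG2, and expression was not analysed here. The role groups below are small, and their counts are descriptions to be set beside these shares.

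Counted by the authors' assignment, 30 proteasome genes (62.5%) and 43 chaperone genes (58.9%) had an ARID1A peak, beside 31.1% of protein-coding names. ARID1B peaks were assigned to 10 (20.8%) and 15 (20.5%), beside 16.0%, and ARID2 peaks to 26 (54.2%) and 41 (56.2%), beside 27.7%. Only 74.9% of the gene names in the deposited lists occur in the newer annotation used for these counts, so these shares over all names may be low. A further 18 chaperone and 5 proteasome members carried names outside these gene lists. They were antisense RNAs, pseudogenes and the genes HSPB11, HSPBAP1, HSPBP1 and PSMC3IP, and the peak and region shares above include them. HSPBP1 is also counted among the co-chaperones below.

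**Figure D3:**
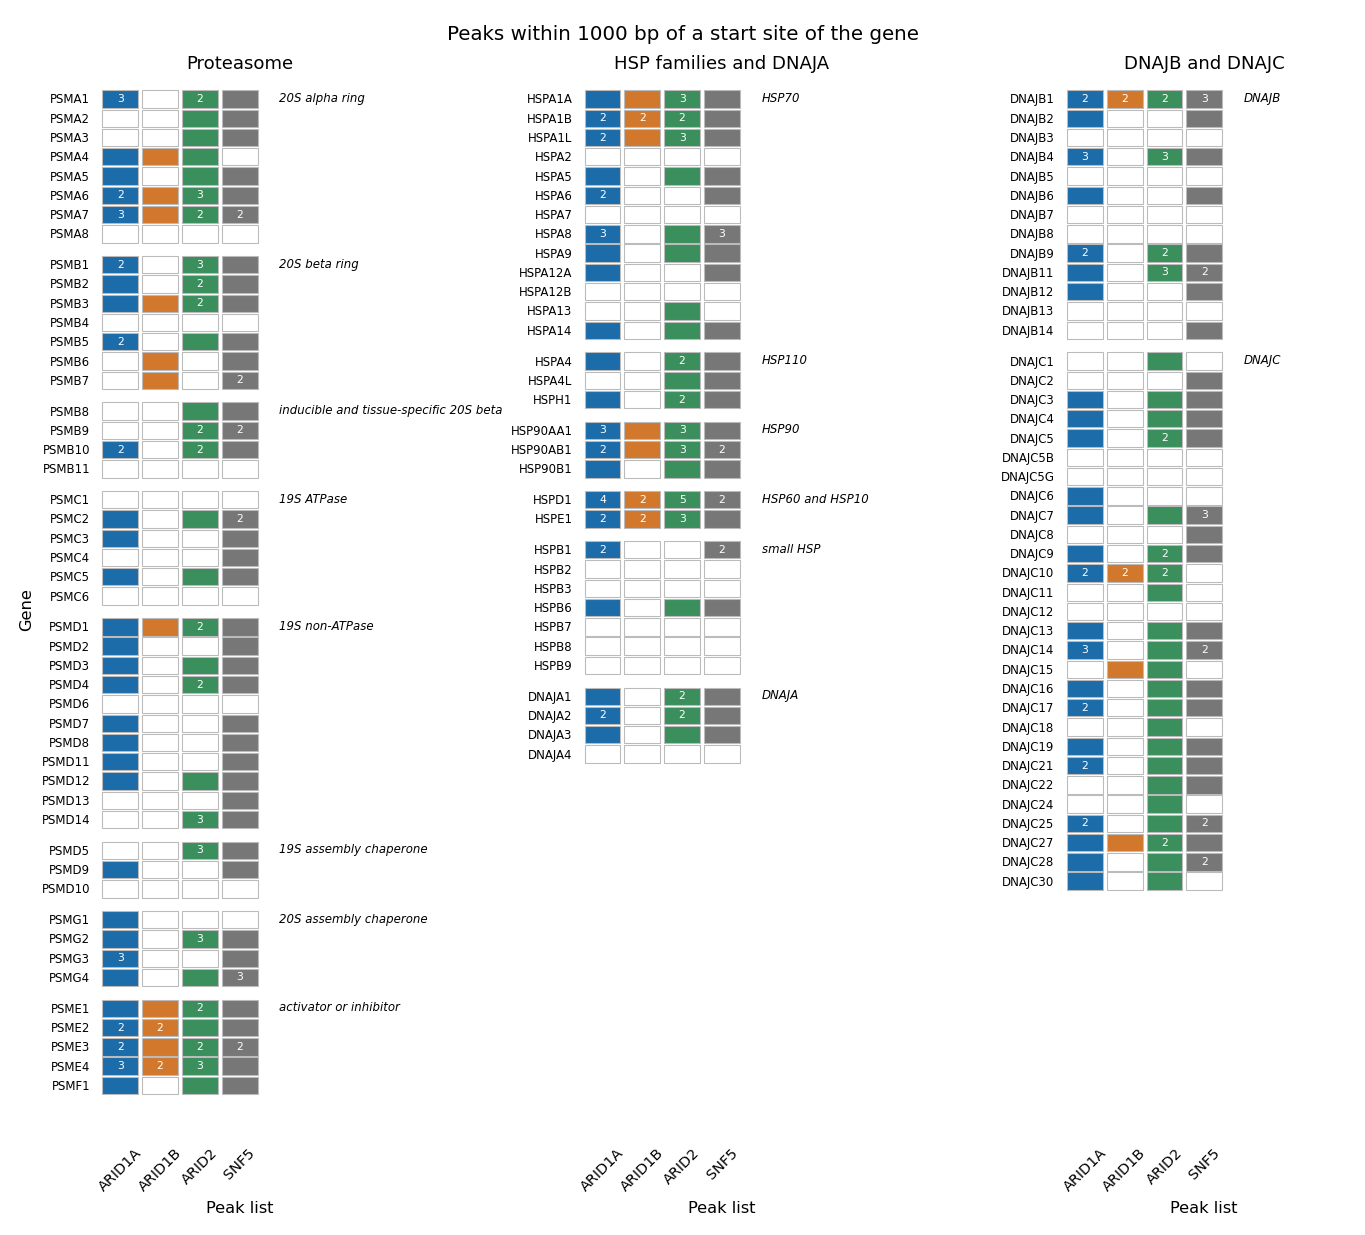
Proteasome and chaperone genes by role (rows) and peak lists (columns). A filled cell marks at least 1 peak within 1000 bp of a start site, and digits give the number where it is above 1. SNF5 cells are filled for 39 of 48 proteasome genes, ARID1A cells for 31 and ARID2 cells for 29, with ARID2 at 7 of the 8 alpha ring genes and 2 of the 6 ATPase genes, and ARID1B cells for 11 proteasome and 11 chaperone genes. The shares of all protein-coding names were 37.4% (ARID1A), 13.8% (ARID1B), 32.9% (ARID2) and 44.0% (SNF5).

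In the 20S core, ARID peaks were near 7 of the 8 alpha ring genes and 6 of the 7 beta ring genes, which build the walls and the catalytic chamber. ARID1A was near 5 and 4 of them, ARID1B near 3 and 3, and ARID2 near 7 and 4. SNF5 peaks were near 6 in each ring. No peak of any list was near PSMB4, a beta subunit, or PSMA8, an alpha subunit of testis. The inducible and tissue-specific beta subunits included PSMB8, PSMB9 and PSMB10, which replace the standard catalytic subunits in the immunoproteasome. ARID2 peaks were near these 3, an ARID1A peak only near PSMB10, and no list had a peak near PSMB11 of thymus.

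PSMA6, an alpha ring subunit, had the most proteasome peaks: 6 ARID1A, 2 ARID1B and 7 ARID2 peaks. At its promoter an ARID1A peak of 656 bp (chr14:35761124-35761779) overlapped a 78 bp ARID1B peak and 2 ARID2 peaks, of 98 bp and 224 bp. All lay on an SNF5 peak of 1085 bp with score 33. A second group of 5 ARID1A, 1 ARID1B and 3 ARID2 peaks lay between chr14:35801563 and 35806425, past the 3′ end of PSMA6 by 14864 bp to 19674 bp and inside no protein-coding gene. All 9 of those peaks overlapped SNF5 peaks, with scores of 16, 18 and 25. The canonical PSMA6 start, 40053 bp to 44810 bp away, was the nearest canonical protein-coding start. The deposited distances, 19690 bp to 24447 bp, were measured to another start.

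PSMB3, a beta ring subunit, had the widest proteasome peak. The ARID1A peak of 1514 bp (chr17:36907831-36909344) overlapped a 158 bp ARID1B peak and 2 ARID2 peaks, of 899 bp and 235 bp, on an SNF5 peak of 2700 bp with score 30. PSMA4 had 1 peak of each list at its start, of 246 bp (ARID1A), 208 bp (ARID1B) and 149 bp (ARID2), and no SNF5 peak lay under them. PSMB6 was assigned a single 137 bp ARID1B peak 94 bp from its start. PSMB7 had a 702 bp ARID1B peak and a 132 bp ARID2 peak in an intron, and a 52 bp ARID1B peak at its promoter. The highest SNF5 score under a proteasome member was 37, under an ARID1A and an ARID2 peak in an intron near PSMA3.

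In the 19S cap, ARID peaks were near 3 of the 6 ATPase genes, whose ring unfolds substrates, and near 9 of the 11 non-ATPase genes. ARID1A was near PSMC2, PSMC3 and PSMC5, ARID2 near PSMC2 and PSMC5, and ARID1B near no ATPase gene. Of all protein-coding names, 55.3% had no ARID peak near a start and 13.8% had an ARID1B peak. Counts over 6 genes are too few to set the ATPase genes apart from these shares. PSMC1 and PSMC6 had no peak in any list, and PSMC4 had only an SNF5 peak, of score 34. Among the non-ATPase genes PSMD13 likewise had only an SNF5 peak (score 20), and PSMD6 had no peak. ARID1A alone was near PSMD2, PSMD7, PSMD8 and PSMD11. ARID2 alone was near PSMD14, which encodes the deubiquitinase of the cap, with 3 peaks of 320 bp, 65 bp and 183 bp on 1 SNF5 peak.

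PSMD1, a large scaffold subunit, was the 1 cap gene with peaks of all 3 lists. Its ARID1A peak of 1245 bp (chr2:231921183-231922427) overlapped ARID2 peaks of 468 bp and 151 bp and an ARID1B peak of 62 bp, and the SNF5 peak below had score 33. Of the assembly factors, PSMD5 and PSMG2 were assigned ARID2 peaks only (2 and 3), and PSMD9, PSMG1, PSMG3 and PSMG4 ARID1A peaks only (1 each). An ARID1A peak near a start of PSMG2 was assigned to CEP76, and an ARID2 peak near a start of PSMG4 to TUBB2B. PSMD10 had no peak in any list.

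The activators and the inhibitor, which dock on the 20S core in place of or beside the cap, had ARID1A and ARID2 peaks near all 5 genes and ARID1B peaks near 4. PSME1 and PSME2 encode the interferon-inducible PA28 activator. At PSME1, ARID1A (660 bp, chr14:24604842-24605501), ARID2 (582 bp) and ARID1B (121 bp) peaks overlapped on an SNF5 peak of score 31. PSME2 was assigned 2 ARID1A and 2 ARID1B peaks, while an ARID2 peak that overlapped them was assigned to the divergently transcribed RNF31. PSME3 was assigned a 215 bp ARID1B peak only, and the ARID1A and ARID2 peaks that overlapped it were assigned to BECN1, 47 bp away. PSME4 (PA200) had 3 ARID1A, 2 ARID1B and 4 ARID2 peaks within chr2:54194971-54197744, and 8 of the 9 lay on 1 SNF5 peak of 3943 bp. PSMF1, the inhibitor, had overlapping ARID1A (188 bp) and ARID2 (173 bp) peaks and an SNF5 peak of score 33.

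The HSP70 family had 21 ARID1A, 7 ARID1B and 20 ARID2 peaks over 13 genes. The heat-inducible pair HSPA1A and HSPA1B, with the germ-cell gene HSPA1L, lay in 1 cluster on chromosome 6 and carried 10 ARID1A, 6 ARID1B and 13 ARID2 peaks. The widest member of all, an ARID1A peak of 2921 bp (chr6:31782588-31785508), covered the shared HSPA1L and HSPA1A start region. It overlapped an ARID1B peak of 657 bp and 4 ARID2 peaks of 116 bp to 969 bp, 1 of them assigned to HSPA1A. At HSPA1B an ARID1A peak of 1770 bp (chr6:31795089-31796858) overlapped ARID1B peaks of 147 bp and 106 bp and ARID2 peaks of 915 bp and 233 bp. Further peaks lay in the interval between the genes, with distances of 3124 bp to 5977 bp. The SNF5 peaks under the cluster were 6220 bp, 2044 bp and 3758 bp wide, with scores of 27, 25 and 25.

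HSPA1A and HSPA1B are near-identical in their coding sequence, and reads there can be shared between them. Of the 50-base words (the read length) in the 2921 bp peak, 38.5% occurred once in the genome, and in the 1770 bp peak 36.8% did. No word was unique in 3 peaks over gene bodies, an 86 bp ARID1A peak, a 233 bp ARID2 peak and a 132 bp ARID2 peak. The ARID1B peaks at both starts (657 bp, 147 bp and 106 bp) had only unique words. How multiply placed reads were handled was not stated, so the levels at the 2 genes are uncertain. Over all members, every word was unique in 101 of 110 proteasome peaks and 155 of 186 chaperone peaks, and fewer than 50% were unique in 2 and 8 peaks. Unique words were not counted over the whole lists.

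**Figure D4:**
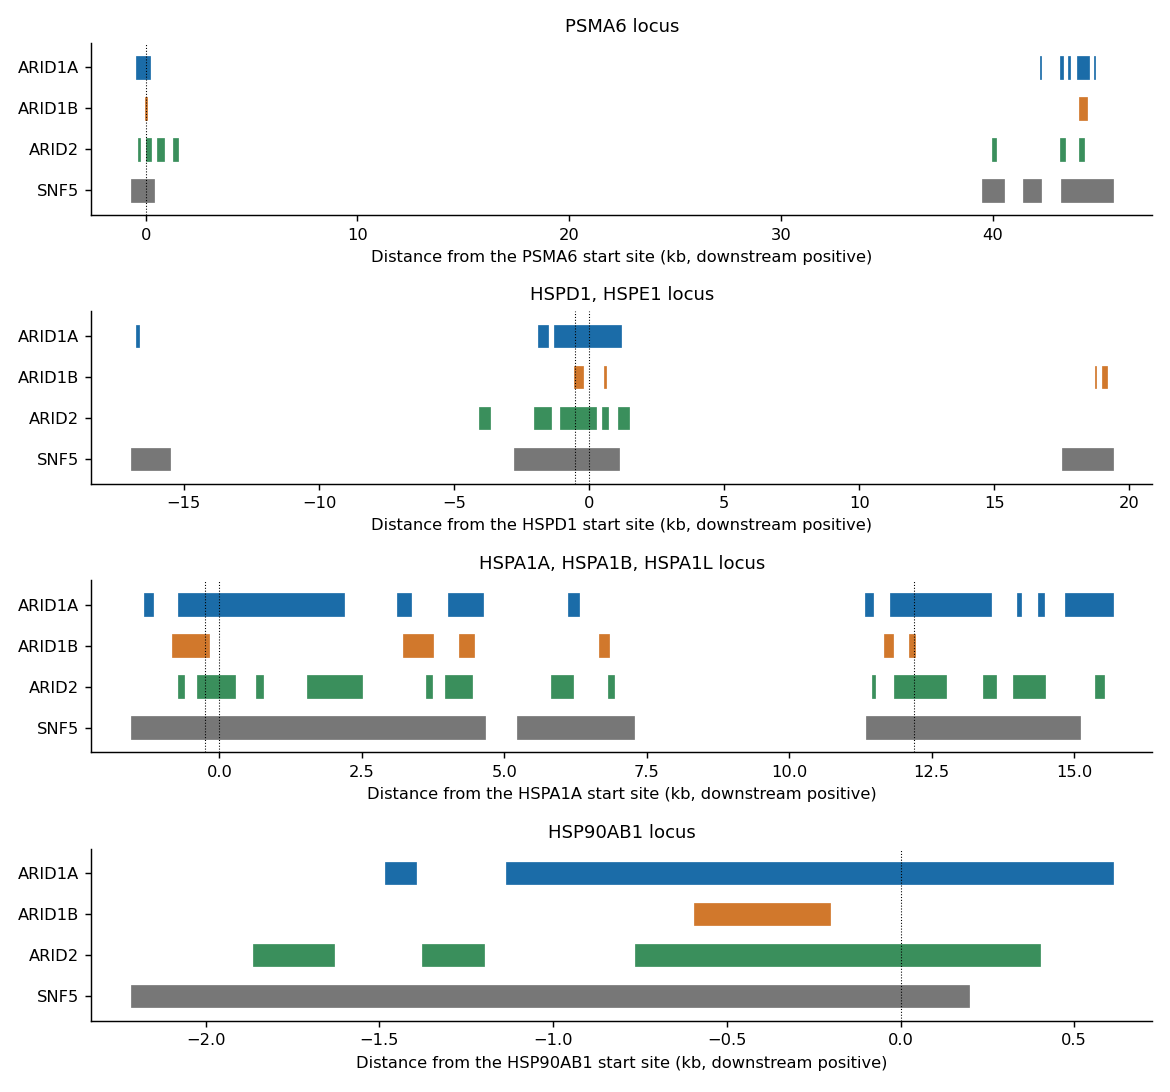
Member peaks of each ARID list (coloured bars), the SNF5 peaks they overlap (grey) and canonical start sites (dotted lines) at 4 loci, in kb from the start of PSMA6, HSPD1, HSPA1A and HSP90AB1, with downstream positive. At PSMA6 a promoter group and a group of 9 peaks past the gene stand apart, and at the HSPA1 cluster peaks of all 3 ARIDs are drawn at both starts and between them.

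HSPA6, a strictly heat-inducible HSP70 gene, was assigned 4 ARID1A, 1 ARID1B and 1 ARID2 peak. ARID1A peaks of 192 bp and 53 bp lay at the promoter, and peaks of all 3 lists (353 bp, 113 bp and 130 bp) overlapped 6765 bp to 6889 bp away, with no SNF5 peak. HSPA6 lies in a duplicated region, and 64.1% to 80.9% of the words of those 3 peaks were unique. A 129 bp ARID2 peak assigned to the HSPA7 copy held 1.25% unique words. Of the other HSP70 genes none was assigned an ARID1B peak. HSPA8, the main cytosolic HSP70, had 3 ARID1A and 1 ARID2 peaks, and HSPA5 (BiP of the endoplasmic reticulum), HSPA9 (mortalin of mitochondria) and HSPA14 had 1 of each. HSPA12A had an ARID1A peak only (175 bp) and HSPA13 an ARID2 peak only (103 bp) among the ARID lists. No peak of any list was near HSPA2 or HSPA12B. The HSP110 genes HSPA4, HSPA4L and HSPH1, nucleotide exchange factors of HSP70, had 3 ARID1A and 5 ARID2 peaks and no ARID1B peak.

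The HSP90 genes all had ARID1A, ARID2 and SNF5 peaks near a start. At HSP90AB1, the constitutive cytosolic form, an ARID1A peak of 1748 bp (chr6:44213703-44215450) overlapped an ARID2 peak of 1166 bp and an ARID1B peak of 395 bp. A further ARID1A and 2 further ARID2 peaks lay upstream, at 1272 bp to 1730 bp, on the same SNF5 peak of score 23. At HSP90AA1, the inducible form, an ARID1A peak of 817 bp (chr14:102553329-102554145) overlapped ARID2 (350 bp) and ARID1B (176 bp) peaks, and the SNF5 peak of 1384 bp had score 42. HSP90B1 (GRP94 of the endoplasmic reticulum) was assigned 1 ARID1A peak of 352 bp, and the ARID2 peak near its start was assigned to a neighbouring transcript.

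HSPD1 (HSP60) and HSPE1 (HSP10) are transcribed away from a shared promoter, which carried the widest ARID1A peak outside the HSPA1 cluster. An ARID1A peak of 2475 bp (chr2:198363395-198365869) overlapped ARID2 peaks of 403 bp, 190 bp and 1298 bp and ARID1B peaks of 100 bp and 365 bp, and the SNF5 peak below was 3909 bp wide with score 29. On the HSPE1 side, ARID2 (633 bp) and ARID1A (350 bp) peaks overlapped without ARID1B. A pair of ARID1B peaks of 161 bp and 52 bp lay past the 3′ end of HSPD1, 9801 bp and 9473 bp from a start by the authors' distance, on an SNF5 peak of score 22 and without ARID1A or ARID2.

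The small HSPs, which hold unfolded proteins without ATP, had the fewest peaks: 5 ARID1A, 1 ARID1B and 0 ARID2 peaks were assigned to 7 genes. An ARID2 peak near a start of HSPB6 was assigned to C19orf55. HSPB1 (HSP27) had 3 ARID1A peaks, 2 of them at the promoter, and an ARID1B peak of 400 bp that lay 15369 bp from a start. HSPB2, HSPB3, HSPB8 and HSPB9 had no peak of any list near a start.

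Among the DNAJ genes, ARID peaks were near 3 of 4 DNAJA, 7 of 13 DNAJB and 23 of 28 DNAJC genes. ARID1B peaks were near 1 DNAJB gene and 3 DNAJC genes. Beside these counts, 55.3% of all protein-coding names had no ARID peak near a start and 13.8% had an ARID1B peak. DNAJB1 (HSP40), the heat-inducible partner of HSP70, had peaks of all 3 lists at its start: ARID1A 410 bp (chr19:14629064-14629473), ARID2 716 bp and ARID1B 75 bp, on an SNF5 peak of score 20. A second start carried ARID2 (577 bp) and ARID1A (195 bp) peaks. DNAJC27 had an ARID1A peak of 944 bp (chr2:25194430-25195373) over ARID2 peaks of 245 bp and 52 bp and an ARID1B peak of 128 bp. DNAJC10, a disulfide reductase of the endoplasmic reticulum, had 2 peaks of each list in 2 overlapping groups, and no SNF5 peak lay under any of the 6.

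DNAJB12, a membrane-bound partner of HSP70, had 10 peaks by assignment (5 ARID1A, 2 ARID1B and 3 ARID2), and only the 255 bp ARID1A peak lay at its promoter. An ARID2 peak 17015 bp from a start was the farthest of that list among the chaperones. The others included 8 peaks between chr10:74079324 and 74088560, 4028 bp to 12850 bp past the 3′ end of the gene, and 6 of these overlapped an SNF5 peak of 2851 bp. DNAJB11, an endoplasmic reticulum partner of BiP, had the SNF5 peak of highest score under a chaperone member, 43, below a 420 bp ARID2 peak (chr3:186285031-186285450). The ARID1A peak that overlapped it was assigned to TBCCD1. The peaks of ARID1A and ARID1B assigned to DNAJB11 lay elsewhere and overlapped no other list. At DNAJC7 and DNAJC13 the ARID1B peak likewise lay in the gene body, away from the ARID1A and ARID2 peaks at the start. None of the 3 words in the 52 bp DNAJC13 ARID1B peak was unique, so its placement is uncertain.

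Nearest-gene assignment left out some promoters. DNAJC9, DNAJC17 and DNAJC30 had ARID1A and ARID2 peaks within 1000 bp of a start that were assigned to DNAJC9-AS1, ZFYVE19 and WBSCR22. PSMB8 had an ARID2 peak assigned to a neighbouring transcript.

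Other genes of the same pathways, from role lists, were read in the same way, beside the 37.4% (ARID1A), 13.8% (ARID1B) and 32.9% (ARID2) of all protein-coding names with such a peak. All 8 TRiC/CCT chaperonin genes, which fold actin and tubulin, had an ARID1A peak within 1000 bp of a start, 7 had an ARID2 peak and 2 (TCP1 and CCT4) an ARID1B peak. The SNF5 peak at CCT4 had score 43. Of 6 prefoldin genes, which hand substrates to TRiC, 3 had an ARID1A peak, 2 an ARID2 peak and 0 an ARID1B peak near a start. Of 20 co-chaperones of HSP70 and HSP90, 16, 4 and 14 had an ARID1A, ARID1B and ARID2 peak (80%, 20% and 70%). Of 16 proteasome partners, 11, 5 and 10 did, among them NFE2L1, with 2, 1 and 2 peaks. Near their starts HSF1 had an ARID1A and an SNF5 peak, HSF2 had an ARID1A, an ARID2 and an SNF5 peak, and HSF4 had 2 SNF5 peaks and no ARID peak. Of 12 folding factors of the endoplasmic reticulum and mitochondria, 10, 1 and 7 had such peaks.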

How the data were processed

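ChIP-seq was done on HepG2 chromatin digested with micrococcal nuclease. Per the study's methods, the authors used bowtie2 to place single-end reads on hg19, removed duplicates, pooled both replicates, called broad peaks with MACS2 at a q-value of 0.01, joined peaks within 100 bp and dropped blacklisted regions. The deposited ARID lists give positions, a distance in bp, a feature class and a nearest gene from an older Gencode release, and the deposited SNF5 list gives a peak score whose scale was not stated. Whether the input served as control was not stated. Members and gene lists were chosen with earlier results of these data known.

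Overlaps of at least 1 bp were counted in Python 3.11.15 (pandas 2.3.3), with Wilson intervals from scipy 1.17.1, and checked on simulated peaks. Start sites and sequences came from GRCh37 with Gencode v44. Distances matched a shared start when taken from peak midpoints (80.1% to 88.2% of neighbouring peak pairs, within 1.5 bp). Genes described in full were, by rule, those assigned peaks of all 3 lists (at most 12 per set, widest first), those with most peaks, the farthest, those under the highest SNF5 score, and core genes with no ARID peak. Other genes and peaks were picked with their values seen. The alternatives each changed 1 overlap, distance or score setting, or which peaks were counted. The deposited chromatin states were compared between overlapping peaks only, and they were not used to describe members.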

Additional observations from a re-analysis of the deposited data

How the results depend on the processing

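No paired analysis was possible because the authors merged the replicates of each antibody before calling peaks, and no replicate could be left out for the same reason. Of 105 alternatives over 24 results, 69 stayed near the reported value and 36 did not, and the cause was not tested. A percentage stayed near when it lay within the interval of the reported one, and a gene count, which had no interval, when it lay within a factor of 1.5. Under a reciprocal overlap of at least 50%, SNF5 overlap fell to 12.8%, 0% and 2.08% (proteasome ARID1A, ARID1B, ARID2) and 11.1%, 0% and 3.80% (chaperones), and overlap with another ARID to 14.9%, 20% and 14.6%, and 21.0%, 11.5% and 26.6%. When gaps of up to 1000 bp counted, SNF5 shares were 95.7% (proteasome ARID1A), 91.7% (proteasome ARID2), 88.9% (chaperone ARID1A) and 86.1% (chaperone ARID2), and shares with another ARID 72.3%, 72.9%, 76.5% and 81.0%. With midpoints at most 500 bp apart, chaperone peaks met SNF5 in 56.8%, 26.9% and 44.3% (ARID1A, ARID1B, ARID2), and with SNF5 peaks at or above the median score in 61.7% (ARID1A). A limit of 500 bp from a start gave promoter shares of 62.5% (proteasome ARID2) and 58.2% (chaperone ARID2), and 5000 bp gave 93.3% and 93.8% (proteasome ARID1B, ARID2) and 86.4%, 65.4% and 86.1% (chaperones). With 1 peak per gene, the one nearest a start, promoter shares were 96.9%, 90.9% and 96.2% for the proteasome and 88.0% (ARID1A) and 85.1% (ARID2) for chaperones. That choice of peak favours promoters by design, so the direction of this change carries no information. Shares of the whole lists were not recomputed under these overlap, distance, score and peak-choice settings, so these values cannot be set against the lists. The SNF5 peaks under members had median widths of 1009 bp (proteasome) and 1029 bp (chaperones), beside medians of 137 bp to 219 bp for the member ARID peaks. The alternative without the HSPA1A, HSPA1B and HSPA1L peaks was added after seeing the data. Depth was not given, so it cannot be said which missing peaks were below detection.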

Other observations

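The chromatin state that the authors' lists give each ARID peak matched between overlapping peaks less often than the feature class did. Of 72 overlapping pairs of an ARID1A and an ARID2 peak in which a member took part, 34 carried the same state. Over all 5618 such pairs the share was 51.4%, beside 43.4% for the product of the shares of the states, while the feature class of the same pairs was equal in 98.2%. For ARID1A and ARID1B the values were 42.9%, 26.9% and 97.4%, and for ARID1B and ARID2 38.3%, 27.5% and 97.3%. Whether the states stand beside the right peaks was not tested, so these values cannot be read as differences between overlapping peaks.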
